A study of Mus musculus with 12 samples.

Results

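Transcripts of fatty acid uptake and oxidation were followed in the hearts of C57Bl/6 mice, as 33 genes listed by their role: uptake, the carnitine shuttle, mitochondrial beta-oxidation, electron transfer and its regulators. Of the 33 genes, 30 had a probe on the Illumina bead arrays, among 16590 genes named there, and the probe with the highest mean over the 12 arrays stood for each gene. The expression of Acsl1, Acacb and Hadha was not analysed here. The 12 hearts fell into 3 groups of 4. In the first, aged mice of 30 to 32 months had received 3 mM spermidine, a polyamine, in the drinking water since month 4. The other groups were untreated aged mice of 30 to 32 months and young mice of 6 months. All were kept under the same specific-pathogen-free housing and light cycle. The labels tell neither the animals' sex nor when the hearts were taken, nor the slide or scan. They do not say whether each sample is a different animal, so the spread behind a p-value here is that between samples and may be technical.

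The adult heart draws most of its energy from long-chain fatty acids. Lipoprotein lipase frees them from circulating lipoproteins, transporters and binding proteins carry them into the cardiomyocyte, and the carnitine shuttle moves their acyl groups into the mitochondrion, where beta-oxidation removes acetyl-CoA units and passes electrons to the respiratory chain. The nuclear receptor PPARalpha, activated by fatty acids, with its coactivator PGC-1alpha, turns on many of these genes, among them Pdk4, Ucp3 and Angptl4.

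Values are log2 intensities after quantile normalization, with 16 added to every intensity before the logarithm, so differences of dim probes are understated. Of the 30 genes with a probe, 27 were above the background limit (3 SDs of the background) on all 12 arrays. Cd36, the fatty acid translocase, was above it on 1 array, Ppara, which encodes PPARalpha, on 4, and Cpt1a, the liver form of carnitine palmitoyltransferase 1, on none. Cpt1a was also the 1 gene that did not pass the filter on low values, which left 29 genes in the tests. Between 11689 and 12337 probes per array were above the limit. The 8 cardiomyocyte markers measured were above it in every heart, with summed intensities of 102517 to 106357 in hearts of spermidine-treated, 99825 to 103737 in hearts of aged and 99317 to 108359 in hearts of young mice. The brightest probes weigh most in these sums. On the log2 scale 6 of the 8 were lower and 2 higher in aged than in young hearts (median -0.12). In spermidine-treated against aged hearts 6 were higher and 2 lower (median 0.08). In both comparisons 0 of the 8 were called. Spermidine replicate 3 and young replicate 4 carried airway and fat-cell transcripts (Scgb1a1 11.47 and 12.89, against at most 4.56 elsewhere), and aged replicate 1 had little atrial RNA (Sln 9.75, against at least 12.79). In such whole-tissue RNA, fewer cells of a type and less RNA per cell cannot be told apart.

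None of the 29 genes passed the test between any pair of groups. In aged against young hearts, 0 of 29 genes were called (limma, Benjamini-Hochberg adjusted p below 0.05, over all 20573 probes kept), against 0.797% of all probes. In spermidine-treated aged against aged hearts, 0 of 29 were called, against 0.00486% of all probes, which is 1 probe. In spermidine-treated aged against young hearts, 0 of 29 were called, against 0.16%. The lowest adjusted p of a member was 0.218, 0.501 and 0.529 in these 3 comparisons. Before adjustment, 4, 5 and 1 members had a limma p below 0.05, which is 13.8%, 17.2% and 3.45% of them, against 14.3%, 9.45% and 7.49% of all probes.

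The median difference over the 29 genes was -0.04 on the log2 scale in aged minus young hearts, -0.10 in spermidine-treated minus aged hearts and -0.004 in spermidine-treated minus young hearts, against -0.01, 0.005 and -0.01 over all probes. Many of the intervals were narrow on this scale. The 95% interval lay within 1.5-fold in either direction for 22 of 29 genes in aged minus young hearts, for 20 in spermidine-treated minus aged hearts and for 21 in spermidine-treated minus young hearts. These are 75.9%, 69.0% and 72.4% of the genes, against 59.7%, 63.2% and 67.2% of all probes. The counts include dim probes, such as that of Hadh, and probes near the top of the scale, such as that of Lpl, where true changes may be understated. The 3 comparisons share groups and are not independent of each other.

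**Figure D1:**
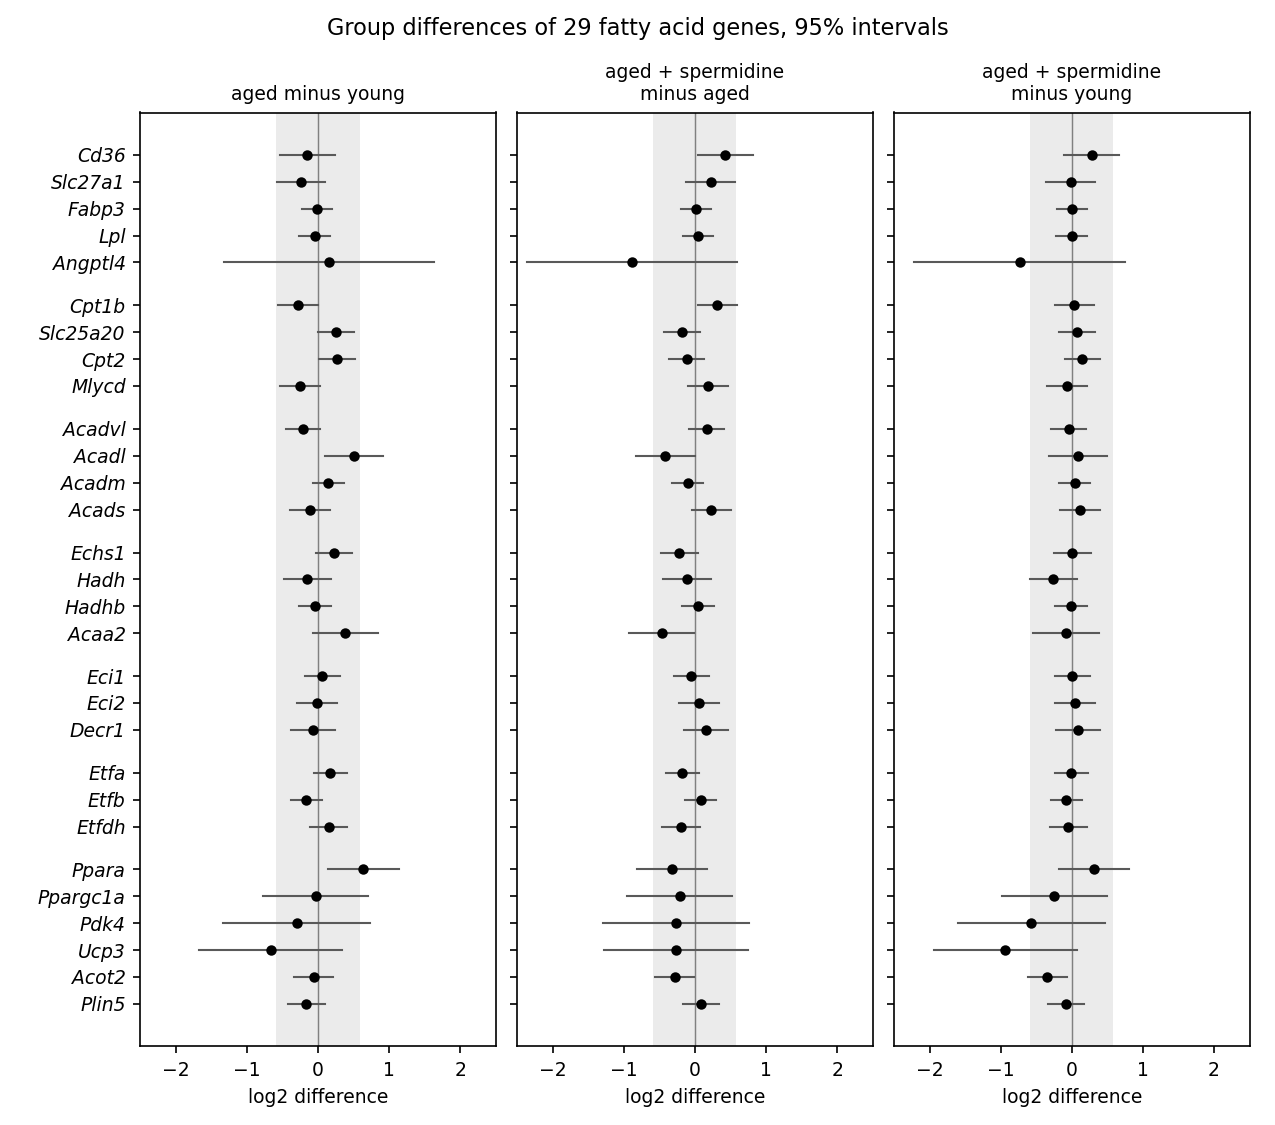
Differences of the 29 genes (y axis, grouped by role) on the log2 scale (x axis) in aged minus young, spermidine-treated aged minus aged, and spermidine-treated aged minus young hearts, as limma estimates with 95% intervals. The grey band marks 1.5-fold in either direction; the intervals of 22, 20 and 21 genes lie inside it, and those of Angptl4, Pdk4, Ucp3 and Ppargc1a are the widest.

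Among the uptake genes, the readings of Lpl and Fabp3 had narrow ranges. Lpl, lipoprotein lipase, lay between 14.40 and 14.49 in spermidine-treated, 14.22 and 14.49 in aged hearts and 14.40 and 14.49 in young ones. Fabp3, the heart fatty acid binding protein, ranged over 14.12 to 14.33, 14.15 to 14.33 and 14.19 to 14.27 in the same order of groups. Their differences between groups were at most 0.05 in size on the log2 scale. Lpl, Fabp3, Acadm, Etfa and Etfb averaged at the 99.8th percentile of the kept probes or above, near the top of the normalized scale at 14.70, where a value follows its rank among few bright probes and true changes may be understated. Slc27a1, a fatty acid transport protein, ranged over 8.85 to 9.42 in spermidine-treated, 8.72 to 9.22 in aged hearts and 8.96 to 9.42 in young ones, and the groups overlapped. Fat-cell genes, of which 5 of 7 were kept, summed to intensities of 66.8 to 1033 in spermidine-treated, 104 to 408 in aged hearts and 101.5 to 2626 in young ones. Their part in the Lpl values was not tested.

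The Cd36 probe read 5.14, 4.68, 4.81 and 4.89 in spermidine-treated hearts, against 3.93, 4.32, 4.71 and 4.85 in aged hearts and 4.66, 4.51, 4.72 and 4.51 in young hearts. It was above the background limit only in spermidine replicate 1, so no difference is given, and the groups overlapped. Cd36 had only this 1 probe, and whether the probe reads the transcript well was not tested.

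In the carnitine shuttle, the genes ran in both directions. Cpt1b, the muscle form of carnitine palmitoyltransferase 1 and the committed entry step, read 11.81, 12.26, 12.04 and 12.22 in spermidine-treated hearts, against 11.67, 11.71, 11.66 and 12.03 in aged hearts and 12.06, 12.04, 12.11 and 11.98 in young hearts. The aged hearts were the low group, but aged replicate 4 lay within the young range. The difference was -0.28 ± 0.13 in aged minus young hearts (SE, n = 4 each; limma adjusted p = 0.338) and 0.32 ± 0.13 in spermidine-treated minus aged hearts (limma adjusted p = 0.501). Mlycd, malonyl-CoA decarboxylase, removes the malonyl-CoA that inhibits this step. Its values were 9.20, 9.51, 9.31 and 9.33 in spermidine-treated hearts, against 9.13, 9.12, 8.92 and 9.47 in aged hearts and 9.39, 9.57, 9.36 and 9.31 in young hearts. Again 3 aged hearts were low and replicate 4 was not. Its difference in aged minus young hearts was -0.25 ± 0.13 (SE; limma adjusted p = 0.408).

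Slc25a20, the carrier that exchanges acylcarnitine for carnitine across the inner membrane, lay the other way. It read 12.20, 11.99, 12.02 and 12.16 in spermidine-treated hearts, against 12.32, 12.33, 12.44 and 12.03 in aged hearts and 11.87, 12.15, 12.05 and 12.03 in young hearts. Aged replicates 1 to 3 were above every other heart, and aged replicate 4 was not (aged minus young 0.25 ± 0.12, limma adjusted p = 0.351). Cpt2, which re-forms acyl-CoA in the matrix, read 11.93, 11.73, 11.86 and 11.82 in spermidine-treated hearts, against 11.85, 11.94, 11.88 and 12.13 in aged hearts and 11.52, 11.90, 11.64 and 11.68 in young hearts. Here young replicate 2 overlapped the aged hearts, and aged replicate 4 was the highest of all (aged minus young 0.27 ± 0.12, limma adjusted p = 0.317).

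The acyl-CoA dehydrogenases open each round of beta-oxidation, each for a range of chain lengths. Acadvl, for very long chains, read 12.72, 12.94, 12.77 and 12.87 in spermidine-treated hearts, against 12.41, 12.69, 12.73 and 12.80 in aged hearts and 12.81, 12.98, 12.87 and 12.82 in young hearts. Every aged heart was below every young heart, by as little as 12.80 against 12.81, and the difference of -0.21 ± 0.11 did not pass the test (limma adjusted p = 0.419). Acadm, for medium chains, read 14.26, 13.98, 14.22 and 14.14 in spermidine-treated hearts, against 14.33, 14.21, 14.24 and 14.24 in aged hearts and 14.12, 14.17, 14.12 and 14.02 in young hearts. Every aged heart was above every young heart (0.15 ± 0.10, limma adjusted p = 0.541). These were the 2 members without overlap between aged and young hearts, 1 in each direction, where 8.07% of all probes had none. Between spermidine-treated and aged hearts 0 members lacked overlap, against 3.27% of all probes.

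Acadl, for long chains, showed the largest spread of the dehydrogenases. It read 11.57, 11.11, 11.30 and 11.34 in spermidine-treated hearts, against 11.97, 12.14, 11.78 and 11.09 in aged hearts and 11.31, 11.12, 11.22 and 11.31 in young hearts. Aged replicates 1 to 3 stood above all other hearts and aged replicate 4 below all of them. The difference was 0.50 ± 0.19 in aged minus young hearts (SE; limma adjusted p = 0.241) and -0.42 ± 0.19 in spermidine-treated minus aged hearts (limma adjusted p = 0.524). Acads, for short chains, read 10.21, 10.34, 10.31 and 10.45 in spermidine-treated hearts, against 10.10, 9.84, 10.09 and 10.36 in aged hearts and 10.22, 10.20, 10.03 and 10.41 in young hearts. Its groups overlapped (spermidine-treated minus aged 0.23 ± 0.13, limma adjusted p = 0.584).

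The later steps hydrate, oxidize and cleave the chain. Acaa2, the mitochondrial thiolase that releases acetyl-CoA, read 12.26, 11.97, 11.97 and 12.10 in spermidine-treated hearts, against 12.70, 13.01, 12.70 and 11.75 in aged hearts and 12.18, 12.25, 11.99 and 12.19 in young hearts. As for Acadl, aged replicates 1 to 3 were the highest hearts and aged replicate 4 the lowest. Its difference was -0.47 ± 0.21 in spermidine-treated minus aged hearts (SE; limma adjusted p = 0.521) and 0.39 ± 0.21 in aged minus young hearts (limma adjusted p = 0.434). Echs1, the short-chain enoyl-CoA hydratase, read 11.83, 11.77, 11.68 and 11.91 in spermidine-treated hearts, against 12.22, 11.92, 12.12 and 11.79 in aged hearts and 11.70, 11.70, 11.85 and 11.91 in young hearts. The 3 highest hearts were again aged replicates 1 to 3, and replicate 4 lay among the rest (aged minus young 0.23 ± 0.12, limma adjusted p = 0.413).

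Hadh, the hydroxyacyl-CoA dehydrogenase of short and medium chains, read 5.60, 5.29, 6.01 and 5.41 in spermidine-treated hearts, against 5.61, 5.85, 5.77 and 5.51 in aged hearts and 5.84, 5.81, 5.67 and 6.02 in young hearts. Spermidine replicate 3 lay among the young hearts (spermidine-treated minus young -0.26 ± 0.16, limma adjusted p = 0.813). Hadhb, a subunit of the trifunctional protein, stayed between 12.50 and 12.79 in all 12 hearts. The 3 auxiliary enzymes of unsaturated chains, the isomerases Eci1 and Eci2 and the reductase Decr1, had differences of -0.07 to 0.15 over the 3 comparisons, and none of the 3 had a limma p below 0.05 in any.

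Electron-transferring flavoprotein, built from Etfa and Etfb, hands the electrons to the ubiquinone reductase Etfdh. Etfa read 14.09, 13.77, 13.89 and 13.94 in spermidine-treated hearts, against 14.17, 14.13, 14.19 and 13.91 in aged hearts and 13.87, 13.97, 13.92 and 13.95 in young hearts. Aged replicates 1 to 3 were once more the highest, with replicate 4 among the other groups (spermidine-treated minus aged -0.18 ± 0.11, limma adjusted p = 0.628). Etfdh ranged over 11.77 to 11.98 in spermidine-treated, 11.75 to 12.30 in aged hearts and 11.81 to 11.95 in young ones. Etfb ranged over 13.94 to 14.12, 13.87 to 14.02 and 13.99 to 14.21 in the same order of groups.

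Aged replicate 4 decided several of these values. Without it, 2 of 29 members were called in aged against young hearts, against 2.72% of all probes. They were Acadl (0.72 ± 0.13, limma adjusted p = 0.0201) and Acaa2 (0.65 ± 0.13, limma adjusted p = 0.0256), each on its brightest probe. Numbered from the brightest, Acaa2 probes 2 and 3 were also higher (0.83 and 0.58, limma adjusted p = 0.0106 and 0.0238). Acaa2 probe 4 was lower without overlap (-0.48, limma adjusted p = 0.112). Acadl probes 2 and 3 differed little (0.04 and 0.06, limma adjusted p = 0.939 and 0.861), but probe 3 was above the background limit on only 2 arrays. In that comparison of 3 aged with 4 young hearts, 8 members were higher without overlap (Acaa2, Acadl, Acadm, Echs1, Etfa, Etfdh, Ppara and Slc25a20) and 3 lower (Acadvl, Cpt1b and Mlycd). The same lack of overlap held for 9.29% and 9.1% of all probes. In spermidine-treated against the remaining aged hearts, 1 member was called, Acaa2 (-0.73 ± 0.13, limma adjusted p = 0.0494), against 0.238% of all probes. There, 3 members were higher without overlap (Acads, Cpt1b and Mlycd) and 6 lower (Acaa2, Acadl, Echs1, Etfa, Etfdh and Slc25a20), against 6.28% and 6.21% of all probes. On probe 2 the sign was kept for Acaa2, Cpt1b, Etfa and Slc25a20 (-0.91, 0.27, -0.56 and -0.61). It was the opposite for Acadl, Acads and Etfdh (0.23, -0.24 and 0.45) and on probe 4 of Acaa2 (0.27). Probe 2 of Etfdh was dim and above the background limit on only 6 arrays. Acot2 was not called on its brightest probe, but its dimmer probe 2 was called in both comparisons. That probe differed by 1.55 in aged minus young hearts (limma adjusted p = 0.0154). In spermidine-treated minus aged hearts it differed by -1.51 (limma adjusted p = 0.0495). In each of the other 11 fits that leave out 1 heart, 0 members were called in every comparison.

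**Figure D2:**
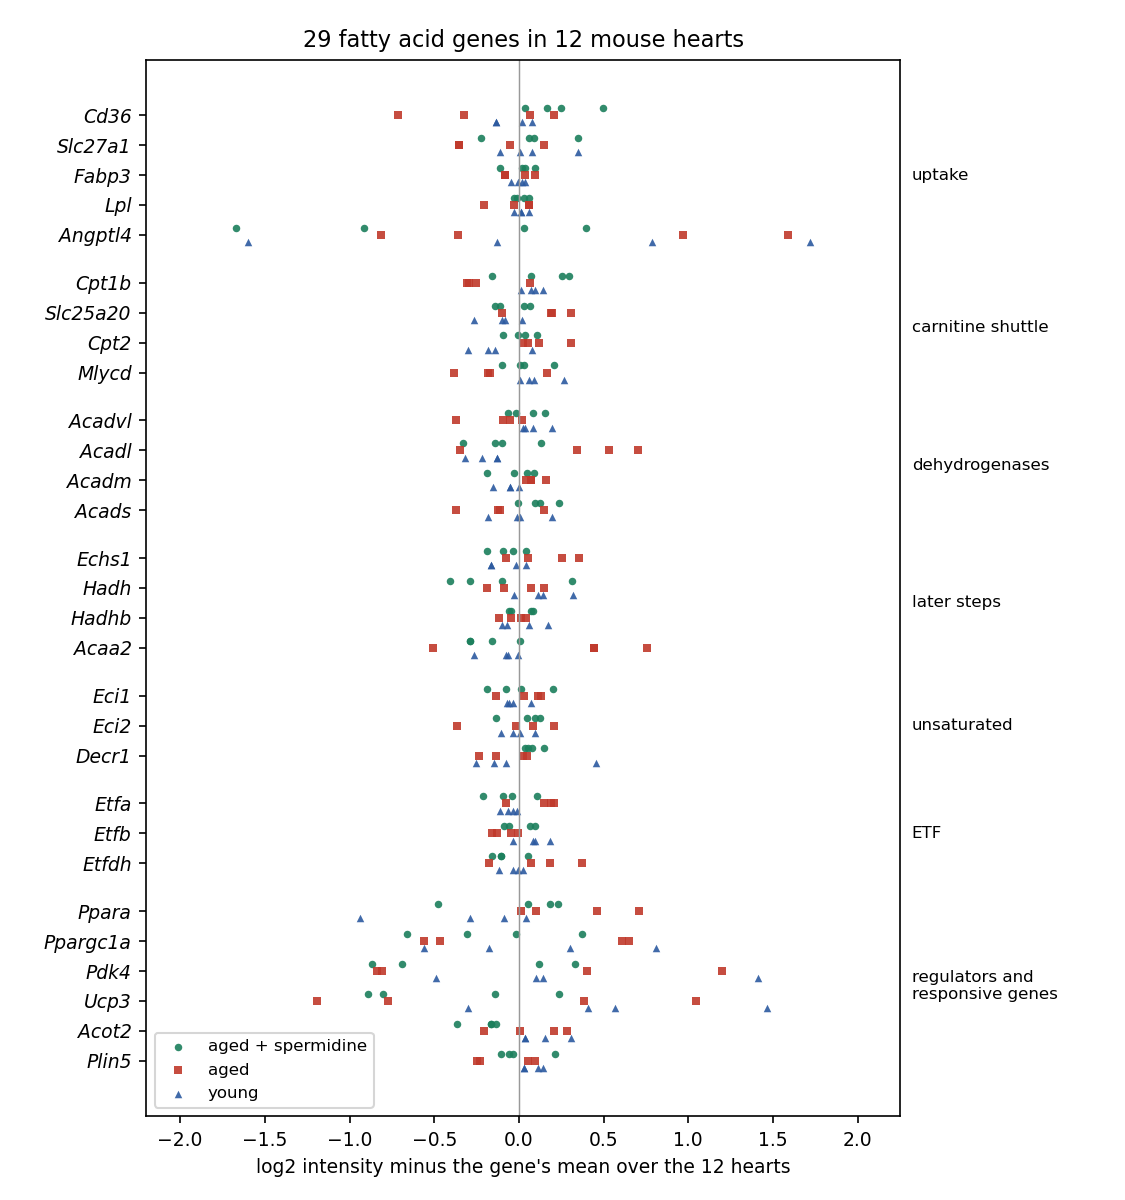
Log2 intensity of each of the 29 genes in each of the 12 hearts, as the deviation from the gene's mean (x axis), with 1 point per heart and genes grouped by role (y axis). Most genes keep within about 0.5 of their mean, Acadl and Acaa2 show 3 aged hearts apart from the fourth, and Angptl4, Pdk4, Ucp3 and Ppargc1a spread widely in all 3 groups.

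Among the regulators and the genes they drive, Ppara read 4.91, 4.96, 4.25 and 4.78 in spermidine-treated hearts, against 4.83, 5.44, 5.19 and 4.74 in aged hearts and 4.77, 3.79, 4.44 and 4.64 in young hearts. It was above the background limit in 2 spermidine-treated, 2 aged and 0 young hearts. With the young values raised to that limit, the aged mean of Ppara was 1.10-fold the young mean on this scale. That figure takes no account of the spread between hearts. The values as read did not pass the test in aged against young hearts (limma adjusted p = 0.218). Aged replicate 4 (4.74) lay below young replicate 1 (4.77), so the groups overlapped. Ppargc1a, which encodes PGC-1alpha, ranged over 7.82 to 8.85 in spermidine-treated, 7.92 to 9.13 in aged hearts and 7.92 to 9.29 in young ones. Plin5, which coats lipid droplets beside mitochondria, ranged over 10.13 to 10.45, 9.99 to 10.33 and 10.27 to 10.38 in the same order of groups.

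Acot2, a mitochondrial thioesterase that releases free fatty acid from acyl-CoA, had the lowest adjusted p in spermidine-treated against young hearts. It read 5.38, 5.38, 5.18 and 5.41 in spermidine-treated hearts, against 5.83, 5.34, 5.55 and 5.75 in aged hearts and 5.70, 5.58, 5.85 and 5.58 in young hearts. All 4 spermidine-treated hearts were below all 4 young hearts, which made Acot2 the 1 member without overlap in that comparison, against 5.51% of all probes. The difference was -0.35 ± 0.13 in spermidine-treated minus young hearts (SE; limma adjusted p = 0.529) and -0.28 ± 0.13 in spermidine-treated minus aged hearts (limma adjusted p = 0.520). This probe was dim (mean 5.54), though above the background limit on all 12 arrays. A second, dimmer Acot2 probe, described below, differed by 0.04 in spermidine-treated minus young hearts.

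Pdk4, Ucp3 and Angptl4 varied more between hearts of 1 group than nearly all other transcripts. Pdk4 encodes the kinase that shuts off pyruvate dehydrogenase and so spares glucose, Ucp3 is an uncoupling protein of the inner membrane, and Angptl4 is a secreted inhibitor of lipoprotein lipase. Their SDs within groups were 0.81, 0.79 and 1.17 on the log2 scale, at the 99.4th, 99.3rd and 99.8th percentiles of all probes kept, and that of Ppargc1a was 0.57, at the 97.8th. The median SD was 0.160 over the members and 0.239 over all probes. These 3 genes are described together because the question was which members vary with Pdk4, a common readout of PPARalpha activity in heart.

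The stretches of 250 bases before the transcription start are shown for Pdk4 (chr6:5496279-5496528, minus strand) and Ucp3 (chr7:100472741-100472990, plus strand), from RefSeq on GRCm38.p6, since Ucp3 was the member that correlated most closely with Pdk4. They are printed 5′ to 3′ along the transcript, and capitals mark the nuclear receptor half-site AGGTCA.
Pdk4: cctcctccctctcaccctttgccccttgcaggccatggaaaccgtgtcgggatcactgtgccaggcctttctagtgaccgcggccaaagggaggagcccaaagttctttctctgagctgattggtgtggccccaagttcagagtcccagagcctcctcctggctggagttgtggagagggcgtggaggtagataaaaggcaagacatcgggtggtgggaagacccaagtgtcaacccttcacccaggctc
Ucp3: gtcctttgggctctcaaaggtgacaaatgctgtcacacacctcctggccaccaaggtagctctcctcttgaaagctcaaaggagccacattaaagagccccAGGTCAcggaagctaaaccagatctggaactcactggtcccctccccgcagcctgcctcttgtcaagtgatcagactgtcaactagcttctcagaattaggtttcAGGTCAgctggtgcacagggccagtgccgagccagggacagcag
Ucp3 had the half-site on the transcript's strand, starting 149 and 44 bases before the start, and Pdk4 had no match. Over 32 promoters of the 28 members in RefSeq's table, each of 250 bases before and 50 after the start and read on both strands, 9 held AGGTCA (28.1%), against 16.3% of 32851 mouse promoters. This half-site was added to the search after the data had been seen. The PPAR-RXR direct repeat, a pair of AGGTCA with 1 base between them, was in 0 of the 32 promoters (0.0396% of all), its looser form, a pair of AGGNCA with 1 base between, in 0 (0.381% of all) and the estrogen-related receptor site TNAAGGTCA, which contains the half-site, in 0 (1.28% of all). The E-box CACGTG was in 1, that of Slc27a1 (3.12%, against 7.15% of all). These matches describe letters in a short window and show no binding.

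Pdk4 read 10.99, 12.01, 11.80 and 10.81 in spermidine-treated hearts, against 10.87, 10.84, 12.08 and 12.88 in aged hearts and 11.82, 13.09, 11.19 and 11.78 in young hearts. Ucp3 read 6.45, 7.49, 7.11 and 6.36 in spermidine-treated hearts, against 6.48, 6.06, 7.64 and 8.30 in aged hearts and 7.82, 8.72, 6.95 and 7.66 in young hearts. The hearts high in one were high in the other: young replicate 2 and aged replicate 4 led both genes, and spermidine replicates 1 and 4 with aged replicates 1 and 2 were the low hearts. Angptl4 read 6.98, 9.05, 8.68 and 7.74 in spermidine-treated hearts, against 8.29, 7.84, 9.62 and 10.24 in aged hearts and 8.52, 10.37, 7.05 and 9.44 in young hearts. Its 2 highest hearts were the same.

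Over the 12 hearts, Pdk4 correlated with Ucp3 (Pearson r = 0.963, Spearman rho = 0.909, permutation p = 2e-05 for r and 8e-05 for rho, adjusted p = 0.00056 and 0.00224 over 28 members) and with Angptl4 (r = 0.892, rho = 0.846, permutation p = 0.00018 and 0.00102, adjusted p = 0.00252 and 0.0143). On deviations from the group means the coefficients were 0.983 for Ucp3 and 0.911 for Angptl4 (permutation test, adjusted p = 0.00224 and 0.0252). Without the 2 hearts farthest from the median of Pdk4, aged replicate 4 and young replicate 2, r was 0.931 and 0.790 over 10 hearts. A second, dimmer Ucp3 probe had its highest value, 7.88, in young replicate 2 and its next, 7.23, in aged replicate 4. Ucp3 and Angptl4 were the 2 of 28 members that passed in the pooled values. The share of all kept probes that correlate as closely with Pdk4 was not tested. Whether such a count is particular to these genes is therefore not known.

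Acadl ran against Pdk4, with r = -0.61 and rho = -0.67 pooled (permutation p = 0.0372 and 0.0206, adjusted p = 0.278 and 0.193) and -0.79 on deviations from the group means (permutation test, adjusted p = 0.0470), and r was -0.47 without the 2 hearts. Acadl, on this its brightest probe, was the 1 further member that passed within groups. A second Acadl probe, above background in every heart, had its highest value, 9.98, in young replicate 2, the heart that led Pdk4. The correlation of this second probe with Pdk4 was not tested. Ppargc1a did not follow Pdk4 in this way (r = 0.15, permutation p = 0.625, adjusted p = 0.741). The group means of Pdk4, Ucp3 and Angptl4 were not told apart: the differences of spermidine-treated minus young hearts were -0.57 ± 0.48, -0.93 ± 0.47 and -0.73 ± 0.69 (SE; limma adjusted p = 0.909, 0.728 and 0.930). Clock genes that peak by day, 9 of 9 kept, summed to intensities of 1729 to 4439 in spermidine-treated, 1286 to 1955 in aged hearts and 2357 to 2481 in young ones. In spermidine-treated against aged hearts all 9 were higher (median 0.95 on the log2 scale), and 0 were called. The 4 kept clock genes that peak by night were all lower there (median -0.47), and 0 were called. The part of the clock genes in the spread of Pdk4, Ucp3 and Angptl4 was not tested. Nor was their part in the group differences of the members, and the collection time was not given.

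**Figure D3:**
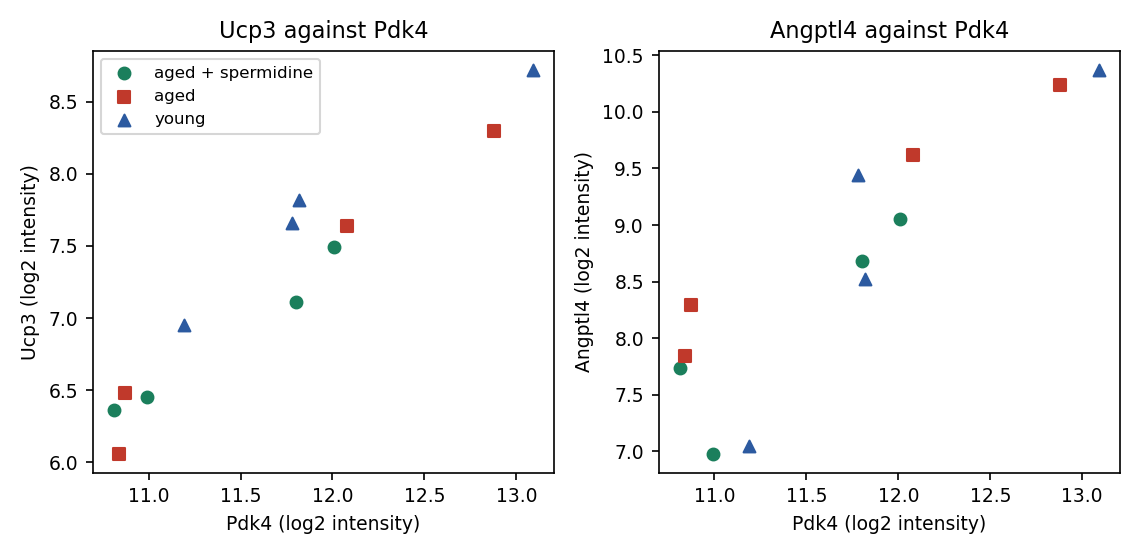
Ucp3 (left, y axis) and Angptl4 (right, y axis) against Pdk4 (x axes) in log2 intensity, with 1 point per heart. Each group holds both low and high hearts; Pearson r over the 12 hearts was 0.963 for Ucp3 and 0.892 for Angptl4.

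Several members had more than 1 probe, and the probes did not always move together. Of 12 genes with several probes above background on at least 4 arrays, the sign of the difference varied between probes of 1 gene in 5 for aged minus young, in 6 for spermidine-treated minus aged and in 7 for spermidine-treated minus young hearts. For Acaa2, the second probe read 11.90, 11.55, 11.43 and 11.59 in spermidine-treated hearts, against 12.52, 12.66, 12.42 and 11.47 in aged hearts and 11.62, 11.73, 11.69 and 11.78 in young hearts. Probe 3 had the same shape, with aged values of 12.33, 12.54, 12.26 and 11.50. The fourth did not: it read 10.60, 11.02, 10.60 and 11.12 in spermidine-treated hearts, against 10.57, 10.55, 10.57 and 10.93 in aged hearts and 11.11, 11.14, 10.80 and 11.12 in young hearts. Aged replicates 1 to 3, the highest on the first 3 probes, were the lowest on the fourth, with a difference of -0.39 in aged minus young hearts.

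A second Acot2 probe read 4.76, 4.90, 4.44 and 4.17 in spermidine-treated hearts, against 5.56, 6.12, 6.54 and 4.57 in aged hearts and 4.09, 5.02, 4.66 and 4.32 in young hearts. This probe was above the background limit in 3 aged hearts (replicates 1 to 3), 1 young heart and 0 spermidine-treated hearts. With the spermidine-treated values raised to that limit, the aged mean was 1.68-fold theirs on this scale, without account of the spread between hearts. With all 4 aged hearts, this probe did not pass in spermidine-treated minus aged (limma adjusted p = 0.453) or aged minus young hearts (limma adjusted p = 0.140). Without aged replicate 4 it was called in both comparisons (limma adjusted p = 0.0495 and 0.0154). Acot2 lies among closely similar thioesterase genes, and whether each probe reads Acot2 alone was not tested. A second Slc25a20 probe kept the shape of the first, with 9.56, 9.45, 9.38 and 8.72 in aged hearts against 8.92, 8.91, 8.84 and 8.94 in young hearts. A second Acads probe differed by 0.37 in aged minus young hearts, against -0.12 on the first, and a second Acadl probe by 0.10, against 0.50. In spermidine-treated minus aged hearts both genes changed sign between probes. There the second Acads probe differed by -0.19, against 0.23, and the second Acadl probe by 0.17, against -0.42.

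**Figure D4:**
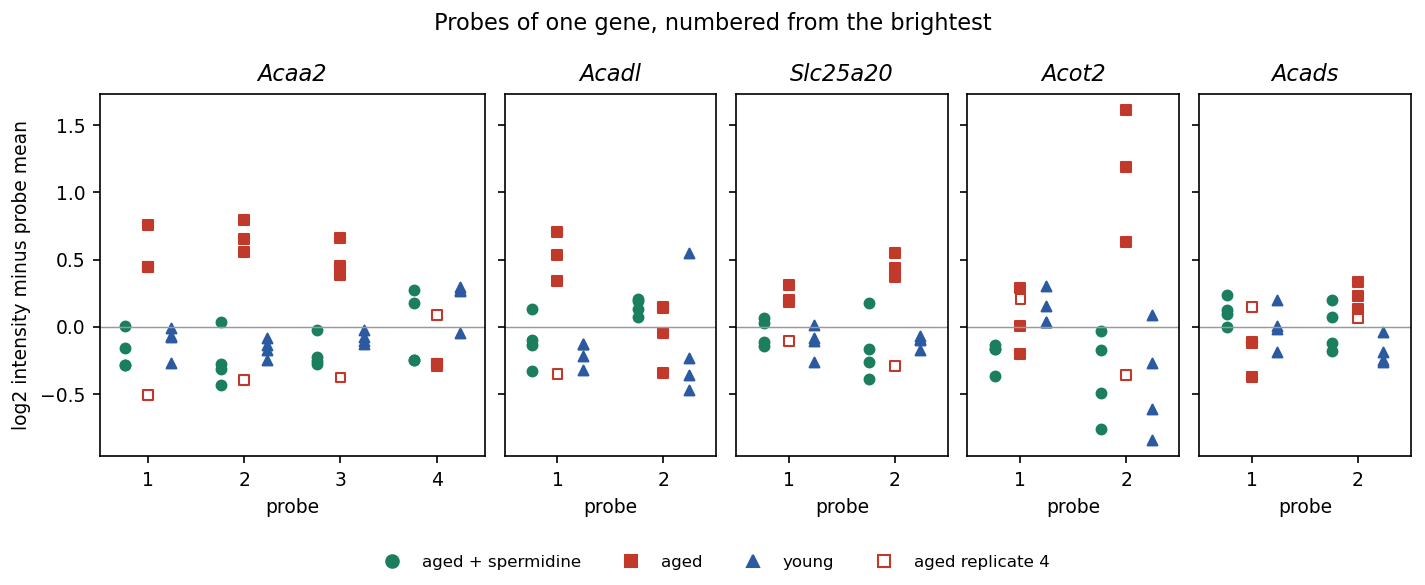
Log2 intensity minus the probe's mean (y axis) for the probes of Acaa2, Acadl, Slc25a20, Acot2 and Acads (x axis, numbered from the brightest), with 1 point per heart and aged replicate 4 as an open square. The other 3 aged hearts lie highest on the first 3 probes of Acaa2, the first of Acadl, both of Slc25a20 and the second of Acot2, and lowest on the fourth of Acaa2.

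Outside the 33 genes, 95 further genes of fatty acid handling were examined, of which 87 had a probe and 83 were kept. In aged against young hearts 2 of these rose and 0 fell (limma, adjusted over all probes, against 0.797% of all probes). In spermidine-treated against aged hearts 0 of 83 were called, against 0.00486% of all probes. Of the 83, 7 had an unadjusted limma p below 0.05 there, no larger a share than the 9.45% of all probes. In spermidine-treated against young hearts 1 of 83 rose, against 0.16% of all probes. The median differences over the 83 were -0.07, 0.05 and -0.003.

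Acsl6, a long-chain acyl-CoA synthetase best known from brain, rose with age. It read 8.64, 8.36, 8.38 and 8.53 in spermidine-treated hearts, against 9.12, 8.63, 9.01 and 8.81 in aged hearts and 7.72, 7.65, 7.65 and 7.78 in young hearts. All 8 hearts of old mice were above all young hearts. Its difference was 1.20 ± 0.12 in aged minus young hearts (SE, 2.29-fold on this scale; limma adjusted p = 0.000664) and 0.78 ± 0.12 in spermidine-treated minus young hearts (1.72-fold; limma adjusted p = 0.0215), a call that was lost when any of 6 hearts was left out (adjusted p up to 0.102). Between spermidine-treated and aged hearts the difference of -0.42 ± 0.12 did not pass (limma adjusted p = 0.444). A second Acsl6 probe, also above background in every heart, differed by 0.18 ± 0.25 in aged minus young hearts (limma adjusted p = 0.794), and the last was below background in every heart. With the mean of the probes the aged minus young call was lost (0.39, limma adjusted p = 0.215).

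RefSeq lists 3 promoters for Acsl6, and the first (chr11:54303574-54303823, plus strand, GRCm38.p6, the 250 bases before its start) is shown because it held a match to the estrogen-related receptor motif. Capitals mark that motif and the half-site, both on the opposite strand and so printed as their complements. Which promoter the called probe reads out was not tested.
Acsl6: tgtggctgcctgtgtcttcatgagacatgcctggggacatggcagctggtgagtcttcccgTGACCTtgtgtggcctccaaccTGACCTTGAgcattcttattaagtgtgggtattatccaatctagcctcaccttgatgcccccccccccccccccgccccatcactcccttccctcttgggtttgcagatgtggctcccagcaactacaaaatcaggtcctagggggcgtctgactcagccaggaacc
The motif match began 167 bases before the transcription start and contains 1 of the 2 half-sites. The other half-site began 189 bases before the transcription start.

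Bdh1, the mitochondrial enzyme that interconverts the ketone bodies 3-hydroxybutyrate and acetoacetate, also rose with age. It read 9.66, 9.60, 9.81 and 9.69 in spermidine-treated hearts, against 10.37, 9.73, 9.64 and 9.70 in aged hearts and 8.62, 8.36, 8.75 and 9.11 in young hearts. Again every heart of an old mouse was above every young heart. The difference was 1.15 ± 0.18 in aged minus young hearts (SE, 2.22-fold on this scale; limma adjusted p = 0.0125), and without young replicate 1 the adjusted p was 0.0546. A second Bdh1 probe was above background on 1 array, and with the mean of both probes the call was lost (0.65, limma adjusted p = 0.0788). In spermidine-treated minus young hearts the difference on the first probe was 0.98 ± 0.18 (limma adjusted p = 0.0610), which passed in 6 of 12 alternative settings (adjusted p from 0.0146 to 0.798). In spermidine-treated minus aged hearts it was -0.17 ± 0.18 (limma adjusted p = 0.791).

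**Figure D5:**
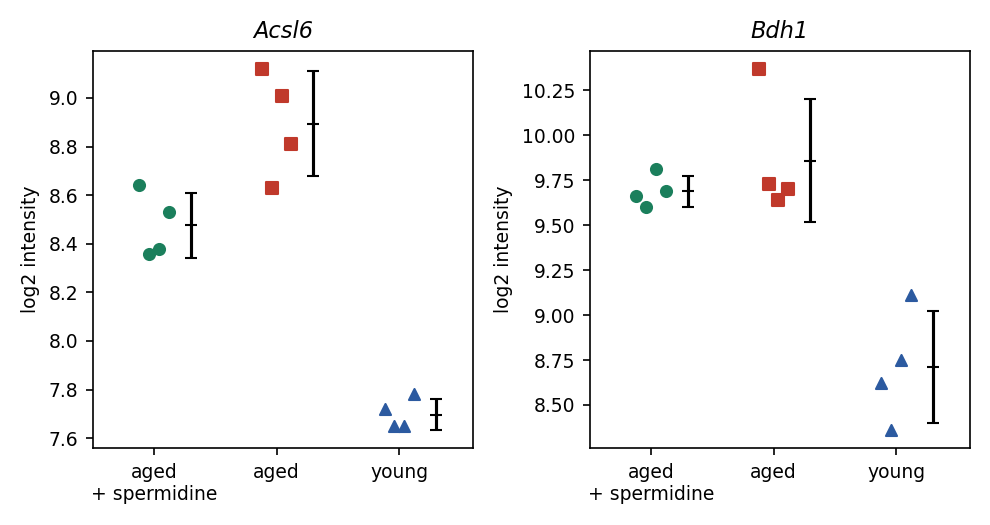
Log2 intensity (y axis) of Acsl6 and Bdh1 in spermidine-treated aged, aged and young hearts (x axis), with 1 point per heart and the mean and SD of each group of 4 beside it. Both groups of aged mice lie above the young group for both genes.

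Between spermidine-treated and aged hearts, the genes of these further lists with the smallest p were Abcd3, Acsl6, Acadsb and Acad8. Abcd3, a peroxisomal fatty acyl transporter, read 11.10, 11.15, 11.09 and 11.05 in spermidine-treated hearts, against 10.46, 10.48, 10.66 and 11.02 in aged hearts and 11.24, 11.22, 11.20 and 10.99 in young hearts. Acadsb, the short/branched-chain acyl-CoA dehydrogenase, read 9.09, 9.14, 8.87 and 9.30 in spermidine-treated hearts, against 8.39, 8.37, 8.29 and 9.09 in aged hearts and 8.86, 8.64, 8.93 and 8.97 in young hearts. Acad8, isobutyryl-CoA dehydrogenase of valine breakdown, read 7.97, 7.70, 7.68 and 7.61 in spermidine-treated hearts, against 8.44, 8.43, 8.31 and 7.74 in aged hearts and 7.81, 7.57, 7.73 and 7.94 in young hearts. In all 3 genes aged replicates 1 to 3 stood apart from every other heart and aged replicate 4 did not. Their differences of spermidine-treated minus aged hearts, 0.44 for Abcd3, 0.57 for Acadsb and -0.49 for Acad8, did not pass the test.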

How the data were processed

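Total heart RNA was amplified, labelled with biotin and hybridised to Illumina bead arrays, per the labels' protocols. The authors deposited a non-normalized table of intensities, from which a background had already been subtracted (24.1% of values were below 0), and a normalized table of intensities at or above 0 with the same median, 21, on every array. The scanner software, background method and normalization are not stated in the labels or headers. The table held no detection p-values, and the tests assumed intensities without them.

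The non-normalized intensities were quantile normalized, so a probe's value follows its rank on the array, 16 was added and log2 taken. Probes above the array's 25th percentile on at least 4 arrays were kept (20573 of 25697, 80.1%). Groups were compared with limma 3.58.1 in R 4.3.3, with 3 group means over 12 arrays, p-values adjusted over all kept probes and a threshold of 0.05. The number of arrays limits the precision. The background limit was 3 SDs of the negative values mirrored about 0. The fit was tested on simulated data. Probe names came from GEO's platform annotation (23978 probes with 1 symbol, 1719 unnamed), updated through RefSeq's gene table on GRCm38.p6 (8 symbols changed).

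The genes given in full had the 8 smallest p per comparison or no overlap, and further genes were those past the threshold or, with none, the 4 smallest p. Abcd3, Acadsb and Acad8 come from that last rule. Members without aged replicate 4 and the other probes were chosen after their values were seen. The members, gene lists and tests were chosen with earlier results of these data known. Correlations with Pdk4 used two-sided permutation tests with 100000 resamples (scipy 1.17.1), whose smallest possible p is 1e-05 for the pooled values. On deviations from the group means, hearts were shuffled only within their group. That allows fewer arrangements, so the smallest possible p is larger there. Alternatives changed the normalization, pseudocount, filter, spread, samples, probe choice and arrays. Same-numbered hearts did not stand out as pairs: their deviations correlated between -0.27 and 0.21. Those of hearts with other numbers correlated between -0.35 and 0.45.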

Additional observations from a re-analysis of the deposited data

Results flagged for a closer look

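In 96 groups of 4 values (each member, Acsl6 and Bdh1 in each group), 3 single hearts stood apart from the other hearts of their group by more than the 95% critical value of Dixon's ratio, which chance alone exceeds in about 1 of 20 groups. Cpt1b was 12.03 in aged replicate 4, against 11.66 to 11.71 in aged replicates 1 to 3. Acot2 was 5.18 in spermidine replicate 3, against 5.38 to 5.41 in the other spermidine-treated hearts. Bdh1 was 10.37 in aged replicate 1, against 9.64 to 9.73 in aged replicates 2 to 4. Without aged replicate 1 the Bdh1 difference of aged minus young hearts was 0.98, and all young hearts were still below all aged hearts.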

How the results depend on the processing

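In the 12 alternatives other than leaving out 1 heart, 0 members were called in any of the 3 comparisons. Leaving out 1 heart gave 0 to 2 called members in aged against young, 0 to 1 in spermidine-treated against aged and 0 in spermidine-treated against young hearts, with aged replicate 4 behind each call. Members without overlap numbered 2 to 11, 0 to 9 and 1 to 4 in these fits, and the median difference of members ranged over -0.0891 to 0.0144, -0.114 to -0.0083 and -0.0239 to 0.0037. In aged against young hearts, 75th percentile scaling gave a median of -0.0014, and the deposited normalized table left 1 member without overlap. In spermidine-treated against aged hearts, the median was -0.0493 with a pseudocount of 64, -0.049 with the mean of a gene's probes and -0.0447 without the 2 arrays with airway transcripts, and 1 (75th percentile scaling) and 2 (mean of probes) members lacked overlap. In spermidine-treated against young hearts, 75th percentile scaling gave a median of 0.0418, the mean of probes left 0 members without overlap, and leaving out the 2 arrays with airway transcripts, or 3 with aged replicate 1, left 4. The mean of a gene's probes turned the Acsl6 difference of spermidine-treated minus aged hearts to 0.0371 and the Hadh difference of spermidine-treated minus young hearts to 0.0106. It also took Acsl6 and Bdh1 out of the calls in aged against young hearts. Leaving out 1 heart moved Angptl4 between -0.45 and 0.66 and Pdk4 between -0.71 and 0.0705 in aged minus young hearts, and Pdk4 between -0.54 and 0.14 and Ucp3 between -0.62 and 0.13 in spermidine-treated minus aged hearts. Over all probes, 164 were called in aged against young hearts, and between 41 (without young replicate 1) and 559 (without aged replicate 4) in the alternatives; in spermidine-treated against aged hearts 1 was called, and 0 to 49; in spermidine-treated against young hearts 33, and 12 to 55. A fit with the replicate number as a block called 0 members and 96, 0 and 30 probes, with the median differences of members at -0.04, -0.10 and -0.004; 5 of 12 hearts correlated best with a heart of their own number. The cause of these changes was not tested. Signal over background limits Cd36, Cpt1a, Ppara, Hadh and Acot2, whose probes were dim.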
